A study of Mus musculus with 6 samples.

Results

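The heat shock proteins and their DnaJ cochaperones form the main protein folding system of the cell. They were examined here as 72 genes, among 18193 genes with a probe set of a single gene symbol on the array. A gene was included where its symbol begins with Hsp and a digit, with Hspa, Hspb, Hspd, Hspe or Hsph, or with Dnaja, Dnajb or Dnajc. These symbols were carried by 174 probe sets, and for every gene the brightest of its probe sets, judged by the mean of log2 signals, stood for it. Left ventricular RNA came from 3 wild-type (WT) and 3 Glut1-TG hearts, each hybridised to 1 Affymetrix array. Glut1-TG mice carry the human Glut1 glucose transporter under the alpha-myosin heavy chain promoter, which drives a transgene in cardiomyocytes. All 6 animals were FVB males aged 11 to 12 weeks on standard chow. The question was whether chaperone transcripts differ between hearts with and without a constant excess of glucose uptake. Expression is given as the signal intensity that the authors scaled per array, with differences on the log2 scale as Glut1-TG minus WT. Probe sets bind with unequal strength, so the level of a gene is compared between hearts, and mean signal across genes serves only to group genes of like brightness.

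Chaperones of the HSP70 family bind exposed hydrophobic stretches of proteins and release them in a cycle driven by ATP. DnaJ proteins, named DNAJA, DNAJB and DNAJC, carry a J domain that starts ATP hydrolysis by HSP70 and so choose where it works. HSP90 receives partly folded clients from HSP70, HSP110 proteins exchange its nucleotide, and the small heat shock proteins (HSPB) hold unfolded proteins without ATP. Mitochondria fold imported proteins with their own HSP70 and with the HSP60 and HSP10 chaperonin, and the endoplasmic reticulum has its own HSP70 and HSP90. Part of the family is constitutive and abundant in heart muscle, and part is switched on by heat shock factors when proteins misfold.

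No member, read by its brightest probe set, differed between Glut1-TG and WT hearts past the threshold for all genes. Of 72 members 65 passed the filter on low signal (the upper 60% of probe sets by mean, a signal of 115), and 0 were higher and 0 lower at an adjusted p under 0.05 in limma, a linear model with variance shared across genes. Over all 13178 genes tested, 0.258% were higher and 0.599% lower by the same rule. At an unadjusted limma p under 0.05, 2 members were higher (5.47% of all genes) and 6 were lower (5.81% of all genes). At the thresholds of the study's methods, a minimum fold change together with an unadjusted p below a limit in the methods' t-test, 2 members were higher (3.21% of all genes) and 2 lower (2.65% of all genes). Hspa13 and Dnajc14 were the higher ones, and Hspa5 and Hspb7 the lower ones.

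In 12 of the 65 members (18.5%) all 3 Glut1-TG signals lay below all 3 WT signals, against 8.77% of all genes tested. In 2 members all 3 lay above, against 8.67% of all genes. The log2 difference was below 0 in 48 of the 65 members, with a median of -0.13. Over all genes tested the median was 0.02 and 47.0% lay below 0. The median also moved with signal over all genes tested. Of 943 genes with a mean signal over 4096, 70.7% were below 0, with a median of -0.08. The 16 members in that range had a median of -0.18, and 15 of them were below 0. Among 3166 genes between 1024 and 4096 the median was -0.03 and 56.9% were below 0. The 21 members in that range had a median of -0.10, and 13 of them were below 0. Among 5828 genes between 256 and 1024 the median was 0.05, and the 24 members in that range had -0.07. Under 256 the 4 members had a median of 0.26, above the 0.13 of 3241 genes. By family, the medians were -0.17 in the 2 HSP90 genes, -0.22 in 13 HSP70 and HSP110 genes, -0.39 in the 2 chaperonin genes, -0.16 in 6 small heat shock proteins and -0.16 in 4 DNAJA genes. The 7 members that did not pass the filter were Dnajb3, Dnajb7, Dnajc5b, Dnajc6, Dnajc22, Hspa1l and Hspb9. Their signals ran from 6.2 to 225.9 over the 6 arrays, and they were not tested.

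Markers of cardiomyocytes lay lower in Glut1-TG hearts as well. All 14 cardiomyocyte markers, among them troponins, titin and myosin chains, had a log2 difference below 0, with a median of -0.19. Over all genes tested 47.0% lay below 0. All 14 markers had a mean signal over 4096, a range in which 70.7% of genes lay below 0. None of the 14 markers passed limma, and 4 were lower at an unadjusted p under 0.05 (5.81% of all genes). Their summed signal was 562026 to 688747 in WT hearts and 527305 to 559195 in Glut1-TG hearts, so the groups did not overlap. With each array centred on these markers, 26 of the 65 members lay below 0, their median was 0.05 and the median of all genes was 0.20. The centring moves every gene of an array by the same amount. The median of the members minus that of all genes, -0.15, is therefore the same with and without it by construction. In bulk ventricle, fewer cells of a type, less RNA per cell and the drift of bright genes below 0 cannot be told apart.

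**Figure D1:**
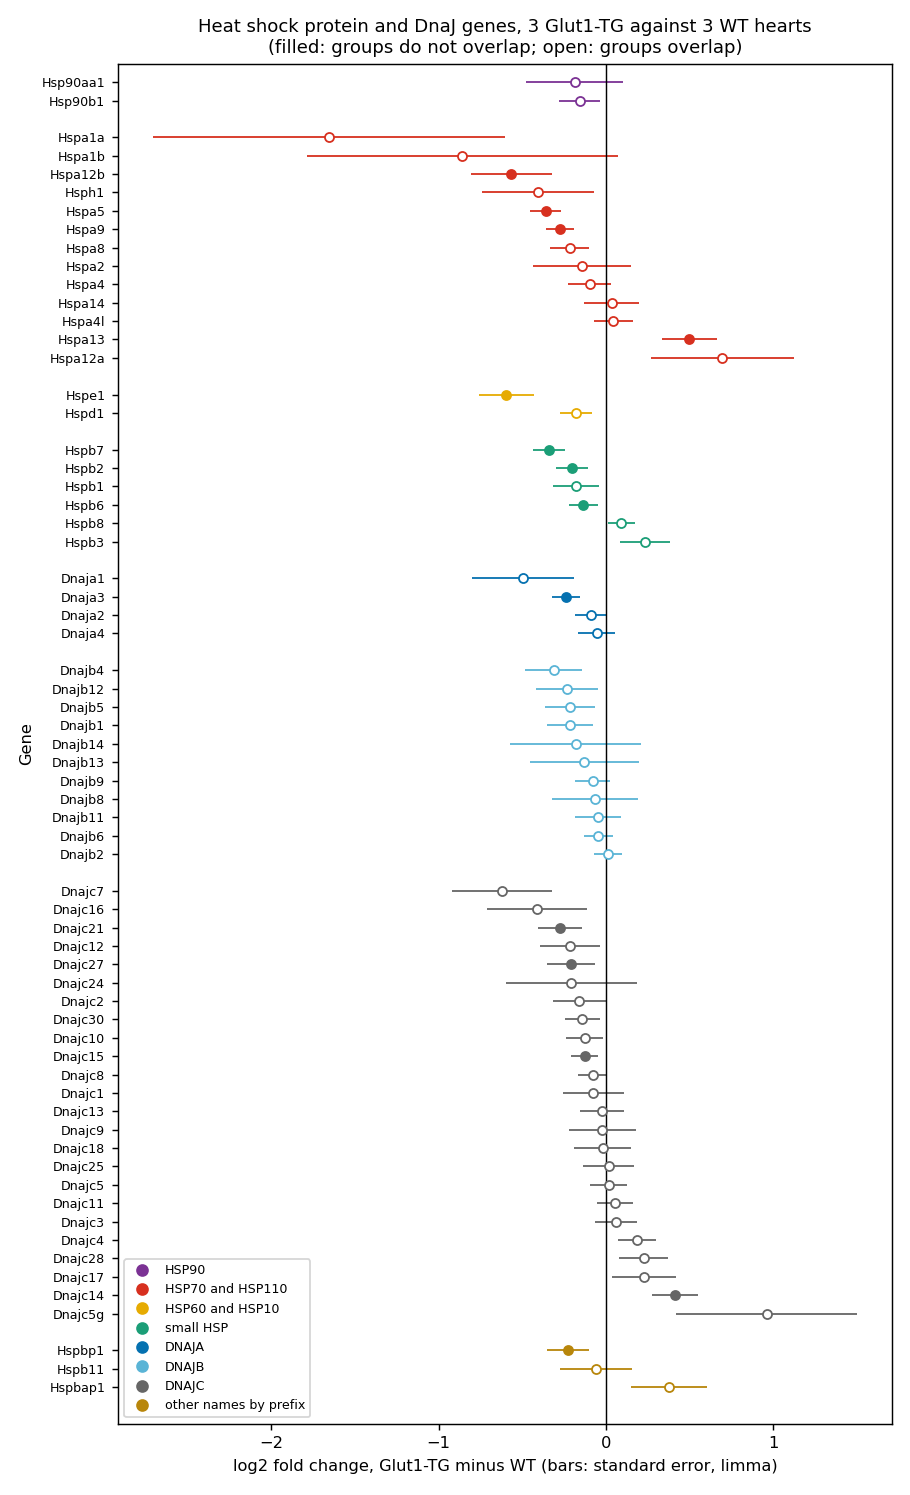
The 65 members tested, 1 to a row and coloured by family, with their log2 fold change on the horizontal axis (Glut1-TG minus WT) and bars for the limma standard error. Filled points are the 12 members whose Glut1-TG signals all lay below the WT signals and the 2 whose signals all lay above; 48 points lie below 0 and none passed limma.

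**Figure D2:**
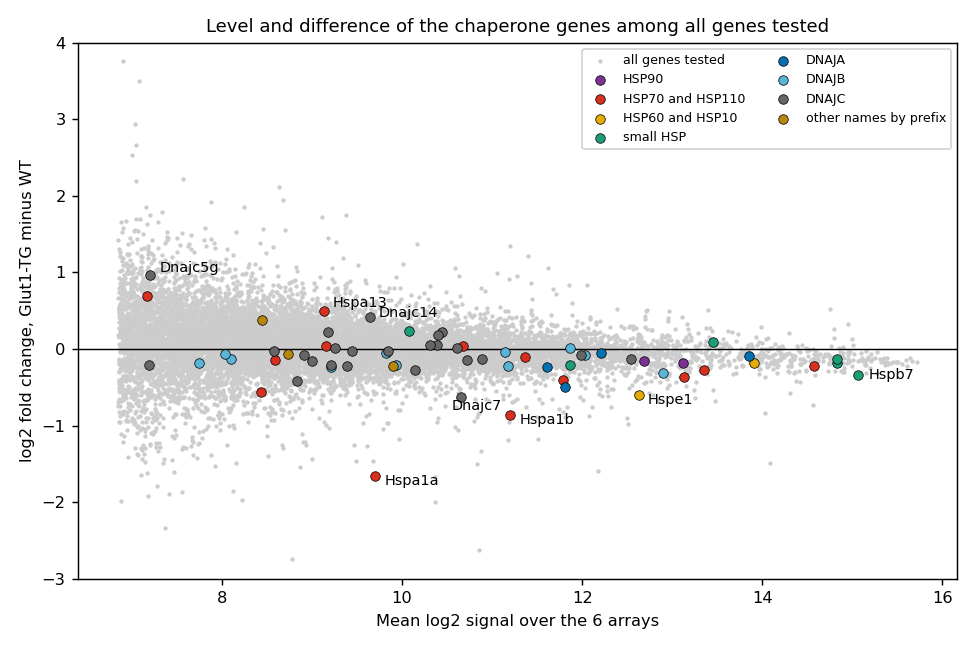
Log2 fold change (vertical axis) against mean log2 signal over the 6 arrays (horizontal axis) for all 13178 genes tested (grey) and the 65 members (coloured by family). Hspa1a at -1.65 and Hspa1b at -0.86 lie lowest among the members, and the grey cloud drifts below 0 at high signal.

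Other values of the series bear on all members. Slc2a1, the mouse gene for Glut1, had signals of 526.7, 408.6 and 532.9 in WT and 851.1, 753.1 and 757.2 in Glut1-TG hearts (limma adjusted p = 0.11). How far its mouse probes read the human transgene is not known. The median signal over all probe sets was 213 in Glut1-TG replicate 1 and 171 to 187 in the other 5 arrays. Of 3 atrial markers tested, 2 passed limma as higher and did not overlap, where 0.258% of all genes tested passed as higher. Myl4 had a log2 difference of 1.75 (limma adjusted p = 0.0085) and Myl7 had 3.76 (adjusted p = 0.041). Signals of Myl7 in WT hearts were low, from 14.2 to 90.5. Nppa had a log2 difference of -0.07, with overlap. The summed atrial signal was 5083 to 6004 in WT and 5197 to 8615 in Glut1-TG hearts, so these sums overlapped. Nppa made up most of each sum, which therefore says little about Myl4 and Myl7. Summed signals of endothelial, fibroblast, macrophage, lymphocyte and smooth muscle markers overlapped too, as did Alas2, the 1 red blood cell marker tested. Nothing in the labels says how the animals relate by litter, so the p-values measure the spread between these 6 hearts, and the number of arrays limited the precision.

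The 2 members that varied the most, Hspa1a and Hspa1b, are stress-inducible, and they varied between hearts of the same genotype. They and the genes beside them were chosen after their values were seen. Dnajc5g, of low signal, came next with a within-group standard deviation of 0.80, ahead of Hsph1 with 0.62. Hspa1b, an HSP70 gene that is nearly silent at rest and strongly induced by heat shock, had signals of 1422, 2434 and 9274 in the WT hearts and 8049, 459.2 and 1452 in the Glut1-TG hearts. WT replicate 3 and Glut1-TG replicate 1 were high and Glut1-TG replicate 2 was low, so the groups overlapped across a 20.2-fold range. Hspa1a, its neighbour and near-copy, had 433.2, 1621 and 4600 in WT and 2254, 99.1 and 465.4 in Glut1-TG hearts. The same hearts were high and low, and the lowest of these signals is under the filter's 115. Because both genes encode almost the same protein from nearly the same sequence, a probe set of either may read the other, which was not tested.

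Neither gene separated the genotypes. Hspa1a had a log2 difference of -1.65 (95% confidence interval -4.01 to 0.70, limma adjusted p = 0.60) and Hspa1b had -0.86 (-2.94 to 1.22, adjusted p = 0.78). The 3 probe sets of Hspa1b had differences of -0.86, -0.92 and -0.90. Without Glut1-TG replicate 2 the difference of Hspa1b was 0.11, and without WT replicate 3 it was -0.09. Hspa1a had -0.53 and -0.83 in the same settings. The within-group standard deviation, pooled over both genotypes on the log2 scale, was 2.0 for Hspa1a and 1.77 for Hspa1b, where the median of all genes tested was 0.23. These were ranks 2 and 5 among 13178 genes, and Hspa1b ranked 1 among the 4190 genes with a mean signal over 1000.

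**Figure D3:**
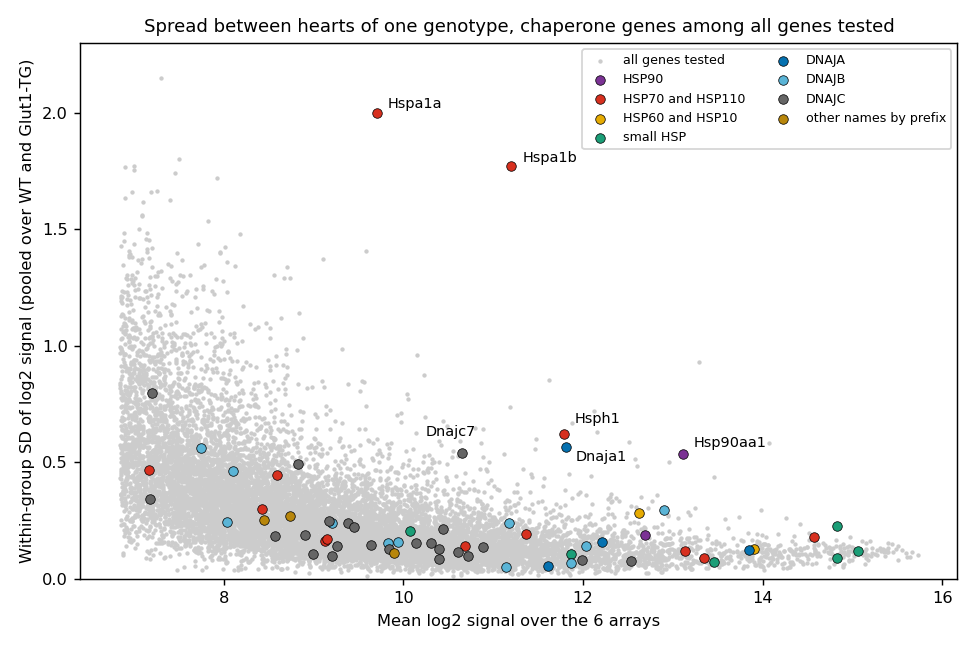
Within-group standard deviation of the log2 signal (vertical axis, pooled over WT and Glut1-TG) against mean log2 signal (horizontal axis) for all genes tested (grey) and the 65 members (coloured by family). Hspa1a (2.0) and Hspa1b (1.77) stand far above genes of like signal, and among the brighter members Hsph1, Dnaja1, Dnajc7 and Hsp90aa1 follow.

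Hsph1 and Dnaja1 had their extremes in the same hearts, in a narrower range. Hsph1, an HSP110 nucleotide exchange factor, had signals of 2902, 3977 and 5787 in WT and 4834, 1793 and 3312 in Glut1-TG hearts. Its log2 difference was -0.41 (95% confidence interval -1.15 to 0.34, adjusted p = 0.69). Dnaja1, a cytosolic J protein that delivers clients to HSP70, had 3666, 4036 and 5272 in WT and 4858, 1730 and 3316 in Glut1-TG hearts (log2 difference -0.49, -1.18 to 0.19, adjusted p = 0.59). Without Glut1-TG replicate 2 the difference was -0.02 for Hsph1 and -0.09 for Dnaja1. For both genes Glut1-TG replicate 1 reached the range of the WT hearts and Glut1-TG replicate 2 lay lowest of all. Dnajb1, a J protein that works with inducible HSP70, was also lowest in Glut1-TG replicate 2 but highest in WT replicate 1. Its signals were 1107, 992.9 and 1068 in WT and 906.7, 787.3 and 1053 in Glut1-TG hearts (log2 difference -0.21, adjusted p = 0.59).

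Hsp90aa1, the stress-inducible cytosolic HSP90, had signals of 6237, 10104 and 13520 in WT and 11061, 5641 and 9242 in Glut1-TG hearts. Its difference of -0.19 (95% confidence interval -0.83 to 0.46, adjusted p = 0.85) turned to 0.07 without WT replicate 3 and to 0.09 without Glut1-TG replicate 2. Dnajb4, a J protein of muscle and other tissues, had 7477, 8630 and 9599 in WT and 8660, 5176 and 7206 in Glut1-TG hearts (log2 difference -0.31, adjusted p = 0.53). A further probe set of Dnajb4, of lower signal, had 0.74, opposite in sign. Dnajc7, a J protein with tetratricopeptide repeats that bind HSP70 and HSP90, had 1373, 2375 and 2437 in WT and 1404, 825.1 and 1889 in Glut1-TG hearts, a difference of -0.62 (95% confidence interval -1.28 to 0.04, adjusted p = 0.48). Without Glut1-TG replicate 2, Dnajb4 had -0.11 and Dnajc7 had -0.29. The groups overlapped in all 3 genes.

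In 13 of the 65 members (20%) the highest signal was that of WT replicate 3 and the lowest that of Glut1-TG replicate 2, against 2.60% of all genes tested and 3.48% of those with a mean signal over 1000. These members were Dnaja1, Dnajb4, Dnajb9, Dnajc2, Dnajc7, Dnajc27, Hsp90aa1, Hsp90b1, Hspa1a, Hspa1b, Hspd1, Hspe1 and Hsph1. The pattern was chosen after it had been seen in Hspa1b, so the share is a description. Outside the family it was shared by 4 of 25 cochaperones of HSP90 and HSP70 (16%), namely Ahsa1, Bag3, Chordc1 and Unc45b, and by 2 of 14 CCT and prefoldin genes (14.3%). Of 13 immediate early genes tested, which respond within minutes to many stimuli, 3 shared it (23.1%), namely Dusp1, Egr1 and Fos. The full order of hearts of Hspa1b within both groups was held by 0 of these 13 genes. It was held by 12 of the 65 members (18.5%), Hspa1b among them, and by 2.66% of all genes tested. This order was also taken from Hspa1b, so these shares are a description. Fos had signals of 327.3, 255.2 and 514.1 in WT and 320.4, 247.8 and 320.0 in Glut1-TG hearts. The summed signal of the 13 immediate early genes was 16776 in WT replicate 3, 12343 in Glut1-TG replicate 2 and 14363 to 15577 in the other 4 hearts.

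**Figure D4:**
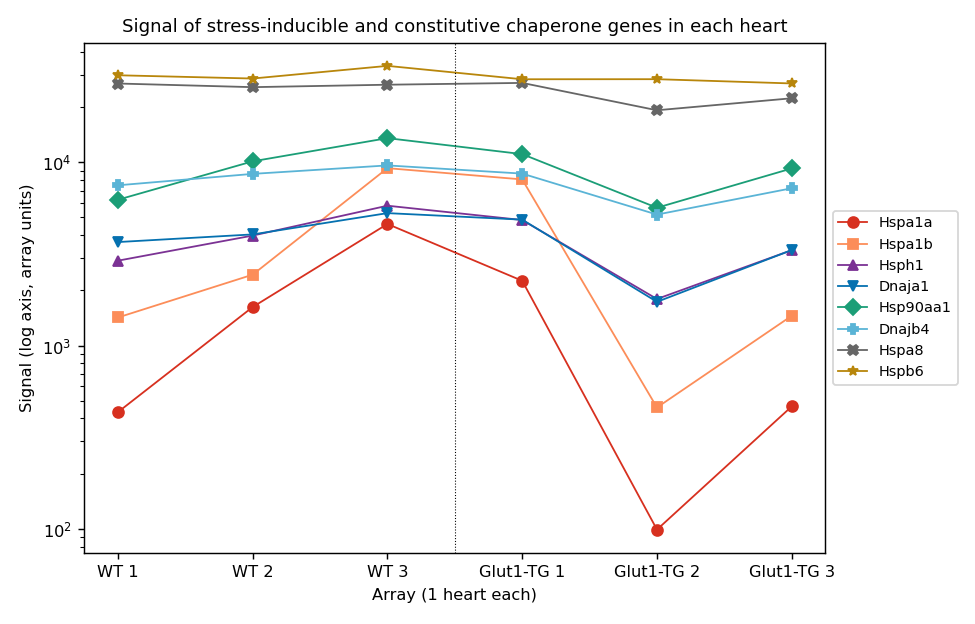
Signal (vertical axis, logarithmic) of 8 members in each of the 6 hearts (horizontal axis), with lines joining the values of each gene. Hspa1a, Hspa1b, Hsph1, Dnaja1, Hsp90aa1 and Dnajb4 are all highest in WT replicate 3 and lowest in Glut1-TG replicate 2, while the lines of Hspa8 and Hspb6 are nearly flat.

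The stretch of 250 bases upstream of the start site is shown for 4 inducible members, because heat shock factors bind there to blocks of GAA and TTC. Sequences are from RefSeq on GRCm38.p6, 5′ to 3′ on the gene's strand, with each GAANNTTC or TTCNNGAA match in capitals. Each of these motifs reads the same on both strands. Where RefSeq lists several start sites, the first listed is shown, of 2 for Hsph1 and 3 for Dnaja1, and a gene was counted when any of its stretches held a match. Upstream sequences were on hand for 59 of the 72 members, and Dnajc2, Dnajc5, Dnajc5b, Dnajc11, Dnajc12, Dnajc18, Dnajc22, Dnajc30, Hsp90aa1, Hspa8, Hspa9, Hspa13 and Hspb2 were not searched. A match lay in this stretch in 14 of the 59 (23.7%) and in 14.5% of 27025 genes. The 14 were Dnaja1, Dnaja4, Dnajb4, Dnajb6, Dnajc10, Dnajc27, Hspa1a, Hspa1b, Hspb1, Hspb3, Hspb6, Hspd1, Hspe1 and Hsph1. A match describes letters and not a bound site.
Hspa1a, chr17:34972157-34972406, minus strand: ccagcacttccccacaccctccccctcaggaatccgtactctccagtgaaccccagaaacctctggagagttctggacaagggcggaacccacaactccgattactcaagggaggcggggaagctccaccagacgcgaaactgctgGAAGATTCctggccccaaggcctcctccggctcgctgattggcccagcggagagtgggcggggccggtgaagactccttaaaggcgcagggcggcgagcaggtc
Hspa1b, chr17:34959239-34959488, minus strand: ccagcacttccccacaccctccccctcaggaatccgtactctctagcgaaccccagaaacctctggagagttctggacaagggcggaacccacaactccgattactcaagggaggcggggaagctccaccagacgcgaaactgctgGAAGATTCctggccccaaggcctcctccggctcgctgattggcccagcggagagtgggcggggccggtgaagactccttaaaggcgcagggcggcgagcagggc
Hsph1, chr5:149636337-149636586, minus strand: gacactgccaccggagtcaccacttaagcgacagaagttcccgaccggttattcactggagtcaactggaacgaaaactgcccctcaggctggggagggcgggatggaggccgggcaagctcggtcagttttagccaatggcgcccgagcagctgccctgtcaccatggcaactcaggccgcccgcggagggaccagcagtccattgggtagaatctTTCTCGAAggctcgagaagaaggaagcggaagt
Dnaja1, chr4:40722218-40722467, plus strand: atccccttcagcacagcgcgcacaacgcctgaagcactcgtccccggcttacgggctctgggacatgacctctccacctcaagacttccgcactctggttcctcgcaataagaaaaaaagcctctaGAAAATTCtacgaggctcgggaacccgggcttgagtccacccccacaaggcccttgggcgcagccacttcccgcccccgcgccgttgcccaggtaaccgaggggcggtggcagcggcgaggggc
Hspa1a and Hspa1b share 247 of these 250 bases (98.8%), with their match beginning 104 bases before the start site in both. In Hsph1 the match begins 33 bases and in Dnaja1 124 bases before the start site.

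Constitutive HSP70 of the cytosol was steadier. Hspa8, the cognate HSP70 of all cells, had signals of 26844, 25642 and 26441 in WT and 27050, 19186 and 22303 in Glut1-TG hearts. Its log2 difference was -0.22 (95% confidence interval -0.48 to 0.04, adjusted p = 0.53), and the lower mean came from Glut1-TG replicates 2 and 3. Hspa4, an HSP110 relative, had -0.10 (-0.38 to 0.19, adjusted p = 0.82) in the probe set of highest signal. Its further probe sets, of lower signal, had -0.59 and -0.69 (adjusted p = 0.33 and 0.31 over all probe sets). Hspa4l had 0.04 and Hspa14 had 0.03, with overlapping groups in both.

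The endoplasmic reticulum members held the lowest p-value of the family. Hspa5 (BiP), the HSP70 of the endoplasmic reticulum and a sensor of misfolded secretory proteins, had signals of 9874, 10435 and 10193 in WT and 9024, 7388 and 7461 in Glut1-TG hearts. All 3 Glut1-TG hearts lay below the WT hearts, and replicates 2 and 3 lay lowest. The means were 10168 ± 281 (SD, n = 3) and 7958 ± 924 (SD, n = 3). In limma the log2 difference was -0.36 (standard error 0.09, 95% confidence interval -0.57 to -0.15), with an unadjusted p of 0.0034 and an adjusted p of 0.16. With array weights the adjusted p was 0.040, and without Glut1-TG replicate 1 it was 0.052. Centred on the cardiomyocyte markers Hspa5 had -0.18 (adjusted p = 0.49), and as the mean of its probe sets it had -0.14 (adjusted p = 0.67). Further probe sets of Hspa5 had -0.20 and 0.14, so its size and sign differed between probe sets of Hspa5.

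Hsp90b1 (GRP94), the HSP90 of the endoplasmic reticulum, had signals of 5786, 7348 and 7898 in WT and 6375, 5672 and 6709 in Glut1-TG hearts. The groups overlapped, with a log2 difference of -0.16 (95% confidence interval -0.43 to 0.11, adjusted p = 0.67). Its further probe set had -0.42, with all Glut1-TG signals below all WT signals (adjusted p = 0.27 over all probe sets).

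Hspa13, an HSP70 relative on microsomes that lacks the peptide-binding part, lay on the other side. Its signals were 426.0, 450.8 and 549.9 in WT and 728.6, 620.2 and 658.1 in Glut1-TG hearts, without overlap. The means were 476 ± 65.6 (SD, n = 3) and 669 ± 55.0 (SD, n = 3), a difference of 0.50 (standard error 0.16, adjusted p = 0.30). Further probe sets had 0.10, -0.10 and -0.78, and as the mean of its probe sets Hspa13 had -0.07.

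Dnajc14, a J protein of the endoplasmic reticulum membrane, had 620.4, 664.2 and 805.4 in WT and 958.8, 879.1 and 928.4 in Glut1-TG hearts. Again the groups did not overlap, with a log2 difference of 0.41 (standard error 0.14, 95% confidence interval 0.10 to 0.72, adjusted p = 0.32). Its further probe sets had 0.36 without overlap and -0.01 with overlap. The other 10 J proteins of this compartment had differences from -0.41 (Dnajc16) to 0.06 (Dnajc3), and the groups overlapped in each. Dnajb12 had -0.23, Dnajb14 -0.18 and Dnajc10 -0.13. Dnajb9 and Dnajb11, which serve Hspa5, had -0.08 and -0.05.

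Among 21 further genes of endoplasmic reticulum folding and the unfolded protein response, 0 passed limma in either direction, and the median difference was -0.14. At an unadjusted p under 0.05, 3 were lower (5.81% of all genes) and 0 higher (5.47% of all genes). Xbp1, a transcription factor of this response, had signals of 4514, 4415 and 4521 in WT and 4105, 3322 and 3368 in Glut1-TG hearts (log2 difference -0.32, adjusted p = 0.25). Its hearts stood in the same order within Glut1-TG as those of Hspa5 in that replicate 1 was highest and replicate 2 lowest. Pdia3, a disulfide isomerase of glycoproteins, had -0.28 (adjusted p = 0.34).

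The 250 bases upstream of Hspa5 are shown because they hold the element through which this response acts, CCAAT and CCACG parted by 9 bases, here in capitals. The element was searched on both strands. It lay in this stretch in 3 of the 59 members with a RefSeq sequence (5.08%), namely Dnajc3, Hsp90b1 and Hspa5, and in 0.13% of 27025 genes.
Hspa5, chr2:34771840-34772089, plus strand: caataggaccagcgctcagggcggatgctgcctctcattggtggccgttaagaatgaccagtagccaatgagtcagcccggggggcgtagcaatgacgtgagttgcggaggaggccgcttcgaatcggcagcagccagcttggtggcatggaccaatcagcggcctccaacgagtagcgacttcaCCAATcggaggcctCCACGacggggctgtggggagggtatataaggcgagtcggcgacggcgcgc
The match begins 65 bases before the start site. The 3 genes with the element had differences of 0.06, -0.16 and -0.36, and the groups of Dnajc3 and Hsp90b1 overlapped.

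Of 8 mitochondrial members tested, 6 lay below 0 and 2 above, where 47.0% of all genes tested lay below. All 8 had a mean signal over 1024. Of all genes, 56.9% lay below 0 between 1024 and 4096, and 70.7% over 4096. In 4 of the 8 all Glut1-TG signals lay below all WT signals, where 8.77% of all genes tested did. Hspe1 (HSP10), the lid of the chaperonin, had signals of 7047, 7025 and 9537 in WT and 6081, 4050 and 5552 in Glut1-TG hearts. WT replicate 3 was high and Glut1-TG replicate 2 low, as in the inducible genes, yet the groups did not overlap. The means of 7869 ± 1444 (SD, n = 3) and 5228 ± 1053 (SD, n = 3) gave a log2 difference of -0.60 (standard error 0.16, 95% confidence interval -0.96 to -0.23, adjusted p = 0.19). The further probe set of Hspe1 had -0.57, also without overlap.

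Hspd1 (HSP60), the chaperonin barrel that Hspe1 closes, had 16917, 14797 and 17485 in WT and 15961, 13356 and 14145 in Glut1-TG hearts. These overlapped, with a difference of -0.18 (95% confidence interval -0.40 to 0.04, adjusted p = 0.53), and the distance between the partners was not tested. Both genes start in opposite directions from a common region on chromosome 1, where their upstream stretches share 215 bases. The stretch is shown on the strand of Hspe1 because it holds heat shock blocks in series, in capitals as above.
Hspe1, chr1:55087898-55088147, plus strand: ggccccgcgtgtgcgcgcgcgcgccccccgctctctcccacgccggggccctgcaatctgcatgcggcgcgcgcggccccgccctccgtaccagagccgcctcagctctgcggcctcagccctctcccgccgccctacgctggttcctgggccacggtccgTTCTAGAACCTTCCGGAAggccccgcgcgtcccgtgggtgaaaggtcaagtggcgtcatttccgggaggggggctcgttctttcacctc
Its matches begin 89, 84 and 79 bases before the start site and overlap each other. A row of 3 blocks, in which GAANNTTC and TTCNNGAA share a block, lay upstream of 3 of 59 members (5.08%), Dnajb6, Hspd1 and Hspe1, and of 0.514% of 27025 genes.

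Hspa9 (mortalin), the mitochondrial HSP70 that pulls in and folds imported proteins, had signals of 11041, 10976 and 12542 in WT and 9079, 9933 and 9510 in Glut1-TG hearts. The groups did not overlap, and Hspa9 differed by -0.28 on the log2 scale (95% confidence interval -0.46 to -0.09, adjusted p = 0.25). Its further probe sets past the filter had -0.28, -0.41 and -0.53. Dnaja3 (Tid1), the mitochondrial J protein that works with Hspa9, had 3359, 3274 and 3580 in WT and 2840, 2968 and 2843 in Glut1-TG hearts. This was a difference of -0.24 (standard error 0.08, adjusted p = 0.33) without overlap, and its next probe set had -0.12 with overlap. Dnajc15, a J protein of the import motor, had -0.13 (adjusted p = 0.60), with 6149, 6147 and 6372 in WT and 5818, 6045 and 5260 in Glut1-TG hearts. Dnajc28 and Dnajc11 lay above 0, at 0.23 and 0.05, and Dnajc30 had -0.14, each with overlap. The further probe set of Dnajc28 had -0.45, opposite in sign and without overlap.

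Of 13 further mitochondrial chaperones and proteases, 0 passed limma, and the median difference was -0.03. At an unadjusted p under 0.05, 2 were lower (5.81% of all genes) and 0 higher (5.47% of all genes). Grpel1, the nucleotide exchange factor of Hspa9, had signals of 6697, 6025 and 6332 in WT and 5170, 5132 and 4825 in Glut1-TG hearts. It had a log2 difference of -0.33 (unadjusted p = 0.0020, adjusted p = 0.12), without overlap. Pam16, a regulator of the import motor, had -0.25 (adjusted p = 0.40). With each array centred on the cardiomyocyte markers, Hspe1 had -0.42, Hspa9 -0.10 and Dnaja3 -0.06, while Hspd1 had -0.0002 and Dnajc15 0.05.

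**Figure D5:**
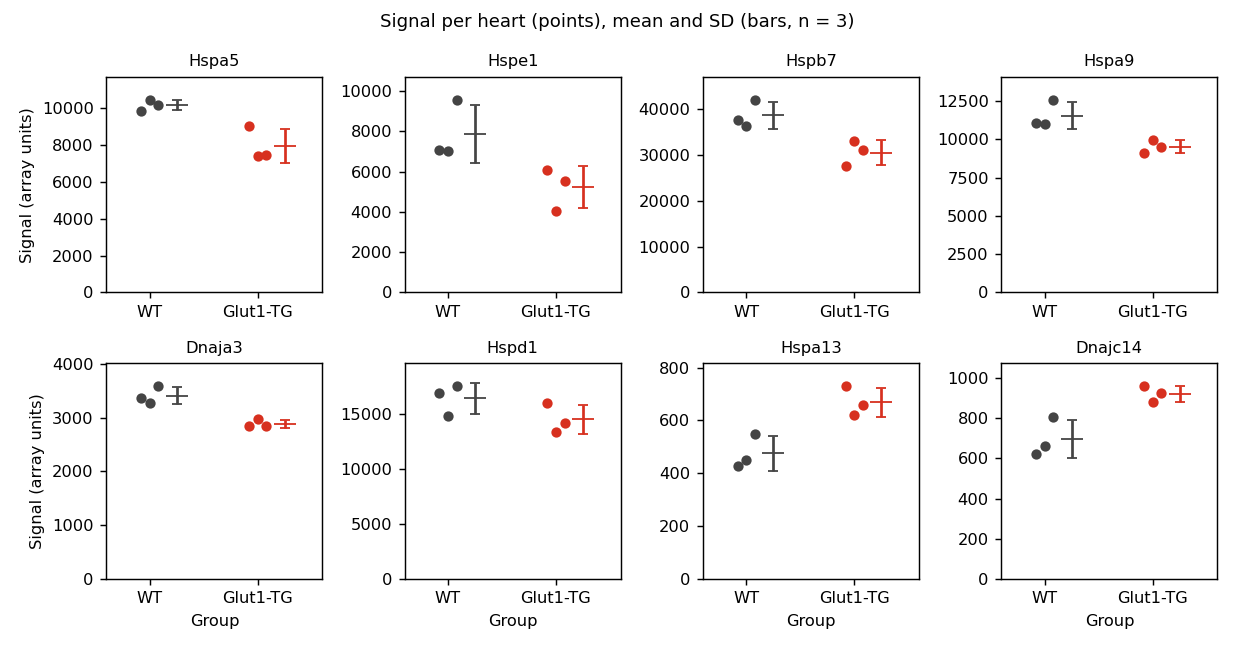
Signal in each heart (points) with the mean and standard deviation (bars, n = 3) in WT (grey) and Glut1-TG (red) for 8 members, each on its own axis from 0. Hspa5, Hspe1, Hspb7, Hspa9 and Dnaja3 had all Glut1-TG hearts below the WT hearts, Hspd1 overlapped, and Hspa13 and Dnajc14 had all Glut1-TG hearts above.

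The small heat shock proteins bind sarcomere and cytoskeleton proteins of muscle, and 6 of them passed the filter. Hspb7, a small heat shock protein of heart and muscle that keeps thin filaments and filamin in order, had signals of 37728, 36269 and 41962 in WT and 27593, 32999 and 30997 in Glut1-TG hearts. There was no overlap, with means of 38653 ± 2957 (SD, n = 3) and 30530 ± 2733 (SD, n = 3). In limma Hspb7 differed by -0.34 on the log2 scale, with a standard error of 0.10, a 95% confidence interval of -0.56 to -0.13 and an adjusted p of 0.20. Its 3 probe sets had -0.34, -0.33 and -0.53, all without overlap. In a fit over all 27022 probe sets past the filter the last of these had signals of 16067, 19487 and 18075 in WT and 13029, 12033 and 12063 in Glut1-TG hearts and passed (adjusted p = 0.046). Of the 141 probe sets of members in that fit, 1 passed. The share of all 27022 probe sets that passed was not counted, so this count has no background beside it. After centring on the cardiomyocyte markers the used probe set of Hspb7 had -0.16.

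Hspb2, a partner of myotonic dystrophy kinase, had a log2 difference of -0.20 (95% confidence interval -0.41 to 0.01, adjusted p = 0.46) and Hspb6 (HSP20), a target of cyclic AMP signalling, had -0.13 (-0.33 to 0.06, adjusted p = 0.60), both without overlap. Hspb1 (HSP27), an actin-binding member with inducible expression, had signals of 31557, 28278 and 33122 in WT and 33802, 22408 and 26956 in Glut1-TG hearts. Here Glut1-TG replicate 1 was the highest and replicate 2 the lowest of all hearts, and the difference was -0.18 (adjusted p = 0.67). Hspb8, which pairs with Bag3 to hand damaged filaments to autophagy, had 0.09 and Hspb3 had 0.24, both with overlap.

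Among the other members, Hspa12b, a distant HSP70 relative of endothelial cells, had signals of 418.1, 519.9 and 339.8 in WT and 224.8, 322.3 and 315.1 in Glut1-TG hearts. The groups did not overlap, with a difference of -0.56 (95% confidence interval -1.11 to -0.02, adjusted p = 0.43). The 7 endothelial markers had a median difference of 0.0035 and a summed signal of 12106 to 14405 in WT and 11897 to 12839 in Glut1-TG hearts. Dnajc21, a J protein of ribosome assembly, had -0.27 (adjusted p = 0.47) and Dnajc27, a Rab-like GTPase with a J domain, had -0.21 (adjusted p = 0.63). Hspbp1, an exchange factor that removes nucleotide from HSP70, had -0.23 (adjusted p = 0.53). All 3 had Glut1-TG signals below the WT signals. As the mean of their probe sets Dnajc21 had 0.17 and Dnajc27 had 0.06.

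Dnaja2, a constitutive cytosolic J protein, had signals of 16104, 13956 and 15745 in WT and 13045, 15791 and 14252 in Glut1-TG hearts (log2 difference -0.09, 95% confidence interval -0.30 to 0.12). Of the 11 DNAJB genes 10 lay below 0 with a median of -0.13, and all 11 overlapped between groups. Of the 24 DNAJC genes 15 lay below 0 with a median of -0.05, and 3 (12.5%) lay lower and 1 (4.17%) higher without overlap, near the 8.77% and 8.67% of all genes. Dnajc5g had the largest positive difference of the members, 0.96, with 44.3 in WT replicate 1 and 150.1 to 244.3 in the other hearts. Over the 39 genes with more than 1 probe set past the filter, 47 of 76 further probe sets had the same sign as the probe set used.

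Regulators and partners outside the family were described by the same fit. Hsf1, the main factor of the heat shock response, was not among the genes tested. Of Hsf2, Hsf4, Hsf5 and Hsbp1, 0 passed limma and 0 had an unadjusted p under 0.05. Hsf2, a factor active in development and proteotoxic stress, had 247.9, 253.5 and 248.4 in WT and 502.2, 379.9 and 244.7 in Glut1-TG hearts (log2 difference 0.53, adjusted p = 0.53), high in 2 of 3 hearts. Hsbp1, which binds heat shock factor, had -0.11. Of 25 cochaperones of HSP90 and HSP70, 0 passed limma, and the median was -0.13. At an unadjusted p under 0.05, 4 were lower (5.81% of all genes) and 2 higher (5.47% of all genes). Ahsa2, which is related to an activator of HSP90, had -0.42 (adjusted p = 0.35), and Sugt1, an HSP90 partner at kinetochores, had 0.37 (adjusted p = 0.37).

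All 14 genes of the CCT chaperonin, which folds actin and tubulin, and of prefoldin lay below 0, and their median was -0.13. Of all genes tested 47.0% lay below 0. Part of the 14 had a mean signal over 4096, a range in which 70.7% of genes lay below 0. None of the 14 passed limma. At an unadjusted p under 0.05, 4 were lower (5.81% of all genes) and 0 higher (5.47% of all genes). Pdrg1 and Cct2 had -0.29 and -0.20 (adjusted p = 0.34 and 0.35). Of the 13 immediate early genes 0 passed limma and 9 lay below 0, where 47.0% of all genes tested did. Atf3, a stress-induced transcription factor, had -0.61 (adjusted p = 0.43), with no overlap between groups, and Egr1, an early growth response factor, had -0.42 (adjusted p = 0.51) with overlap.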

How the data were processed

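Signals from 6 Affymetrix arrays, 3 WT and 3 Glut1-TG, were taken from the deposited table of intensity values. Per the labels the authors made biotinylated cRNA and used GCOS, with no version given in the sources used here. The linear intensity has a 2% trimmed mean of 500 on each array, so no further scaling was applied. No scans or detection calls were used. Values under 1 (48 of them) were set to 1 before log2, and 64 control probe sets were left out.

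Symbols came from the platform annotation: 34945 probe sets had 1 symbol, 932 several and 9160 none, and all 72 members matched the RefSeq gene table of GRCm38.p6 by gene ID (59 also had an upstream sequence). Per gene the probe set of highest mean was kept, and the lowest 40% of probe sets were dropped. In R 4.3.3, limma 3.58.1 (lmFit, eBayes with trend) compared the genotypes without covariates, with Benjamini-Hochberg adjustment over 13178 genes. This fit was also run on simulated data with known differences.

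Members, lists and tests were chosen with earlier results of these data known. Named members were those past the test, up to 10 each way by difference among those whose groups did not overlap, and the member of highest mean and of smallest p per family (further ones were chosen after their values were seen). Other normalizations, offsets, filters, probe set summaries, array weights, each array left out, the replicate number as a block and centring on cardiomyocyte markers were alternatives. From each gene list the 2 genes of smallest p were named. Alternatives for the further gene lists were added after the data were seen.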

Additional observations from a re-analysis of the deposited data

How the results depend on the processing

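The counts of members past limma, 0 higher and 0 lower, were the same under every alternative with 1 value per gene except array weights and the methods' thresholds. In the fit over all 27022 probe sets past the filter, 1 probe set of a member passed, a further one of Hspb7. It was lower (adjusted p = 0.046), and the share over all probe sets was not counted. After Benjamini-Hochberg adjustment the methods' t-test gave 0 and 0 too. With array weights 1 member was lower, Hspa5 (log2 difference -0.42). At the methods' thresholds 2 members were higher and 2 lower, and 2 genes of the further chaperone and stress lists passed where limma gave 0. The median log2 difference of the members was -0.13 as reported, -0.0568 as the mean of the probe sets and 0.0497 after centring on the cardiomyocyte markers, and leaving out 1 array in turn gave -0.15 to -0.0598. Nothing in the labels says whether same-numbered arrays are paired. The deviations of same-numbered arrays correlated at 0.08, -0.03 and 0.05, and those of other pairs of arrays at -0.11 to 0.06. With 3 arrays per group such values cannot decide whether the samples are paired. With the replicate block the counts stayed at 0 and 0, the median at -0.13, and 7 members were lower at an unadjusted p under 0.05. Sign changes among the named members were 0.015 for Dnaja2 after quantile normalization. As the mean of the probe sets Dnajc21 had 0.17, Dnajc27 0.0613, Hsp90aa1 0.11 and Hspa13 -0.0702. Leaving out 1 array in turn gave -0.49 to 0.0929 for Hsp90aa1 (0.07 without WT replicate 3, the highest without Glut1-TG replicate 2) and -1.96 to 0.11 for Hspa1b (the highest without Glut1-TG replicate 2). After the centring Dnaja2 had 0.0892, Dnajc15 0.0521, Hsp90b1 0.0226, Hspa4 0.0808 and Hspb1 0.0011. The centring moved the log2 difference of every gene up by the same amount, so small negative differences turned positive. The cause of the other sign changes was not tested. Of 442 values of named members under alternatives 424 kept direction and side of the threshold. Signals near the filter's 115 limit the genes Dnajc5g and Hspa1a.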
